A study of Mus musculus with 16 samples.

Results

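The effect of Th1 culture was examined in mouse CD4 T cells after 1 day, as the difference between day 1 Th1 and day 1 Th0 culture in the same 2 genotypes. The arrays were taken from the labels, and 4 of the 16 arrays of the series belong to this comparison: wild type (WT) and Erk2-deficient cells in Th0 culture, and WT and Erk2-deficient cells in Th1 culture. Erk2 is one of the kinases that pass on signals from the T cell receptor, and the series set out to study its part in Th1 and iTreg (induced regulatory T cell) differentiation. All cells were labelled as CD4 T cells of strain C57/BL6. The labels do not give the deletion strategy of the Erk2-deficient cells, the contents of the Th0 and Th1 media, or which cultures came from which animals. The other arrays cover day 0, 3 hr of Th0 or iTreg culture, day 1 iTreg culture, and day 1 Th0 cells treated for 1 hr or 3 hr with TGF, taken here as transforming growth factor beta.

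Th1 cells are the helper T cells that produce interferon gamma and act against intracellular microbes. In the textbook account, T cell receptor signals, interferon gamma and interleukin 12 acting through Stat4 induce the lineage factor T-bet (Tbx21), which supports Ifng transcription and opposes Gata3, the lineage factor of Th2 cells. Th0 culture activates the cells without directing them to a lineage.

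Each genotype and culture was measured on 1 Illumina bead array, so there is no replicate within a genotype, and the pair of genotypes serves as a block with 2 arrays a side. Levels are given as log2 intensity after background correction and quantile normalization, and a difference is the day 1 Th1 level minus the day 1 Th0 level on that scale. Median intensity on the 4 arrays lay between 67.4 and 71.1, and each detected 12345 to 12636 of 25697 probes above background. Both Th0 arrays were on 1 chip and both Th1 arrays on the other, so culture and chip cannot be told apart in the direct comparison. The day 1 Th0 cultures with TGF for 1 hr or 3 hr were on the chip of the Th1 arrays, and the difference of Th1 from each is given beside the main one. Those references differ from Th1 culture also by TGF. Beside the label, 11 measured genes of the CD4 T cell list were above background on all 4 arrays. Among them Cd3d was at 12.48 to 12.69 and Cd4 at 7.68 or more. Cd8b1, a chain of the CD8 co-receptor, was at 9.62 to 10.30, and the share of CD8 T cells was not tested. In bulk RNA, fewer cells of a type and less RNA per cell cannot be told apart.

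After 1 day Ifng was 6.18-fold higher in Th1 than in Th0 culture, and Pros1, H2-DMa and Gata3 were 3.80-fold, 3.33-fold and 2.85-fold lower. Each of these 4 genes moved alike in WT and Erk2-deficient cells, and no difference was detectable in Tbx21, the Th1 lineage factor. By limma, 16 of 14501 probes (0.110%) passed an adjusted p of 0.05. Of these, 7 probes (0.0483%) were higher in Th1 culture, for Ifng, Furin and Gadd45g at 2 probes each and 1 probe without a gene symbol. Another 9 probes (0.0621%) were lower, for Pros1, H2-DMa, Gata3, Hemk1, Slc2a6, Casp6, Pdcd4 and Grap and 1 probe without a symbol. A difference was called alike where both genotypes had the same sign and the smaller difference was at least 0.5 of the larger, unequal where it was less than that, and opposite where the signs differed. All 16 called probes moved alike in both genotypes, and the Th0 and Th1 arrays did not overlap at any of them. The additive fit takes out a genotype gap that is the same in all conditions, and counts a change of that gap between conditions as residual spread. Probes that moved unlike in the 2 genotypes were thus less likely to pass. The like movement and the separation of groups among called probes are therefore partly set by the call itself. Over all 14501 probes, 37.4% had groups that did not overlap. Over all 9800 genes tested, with 1 probe each, 4070 were opposite in sign between genotypes.

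**Figure D1:**
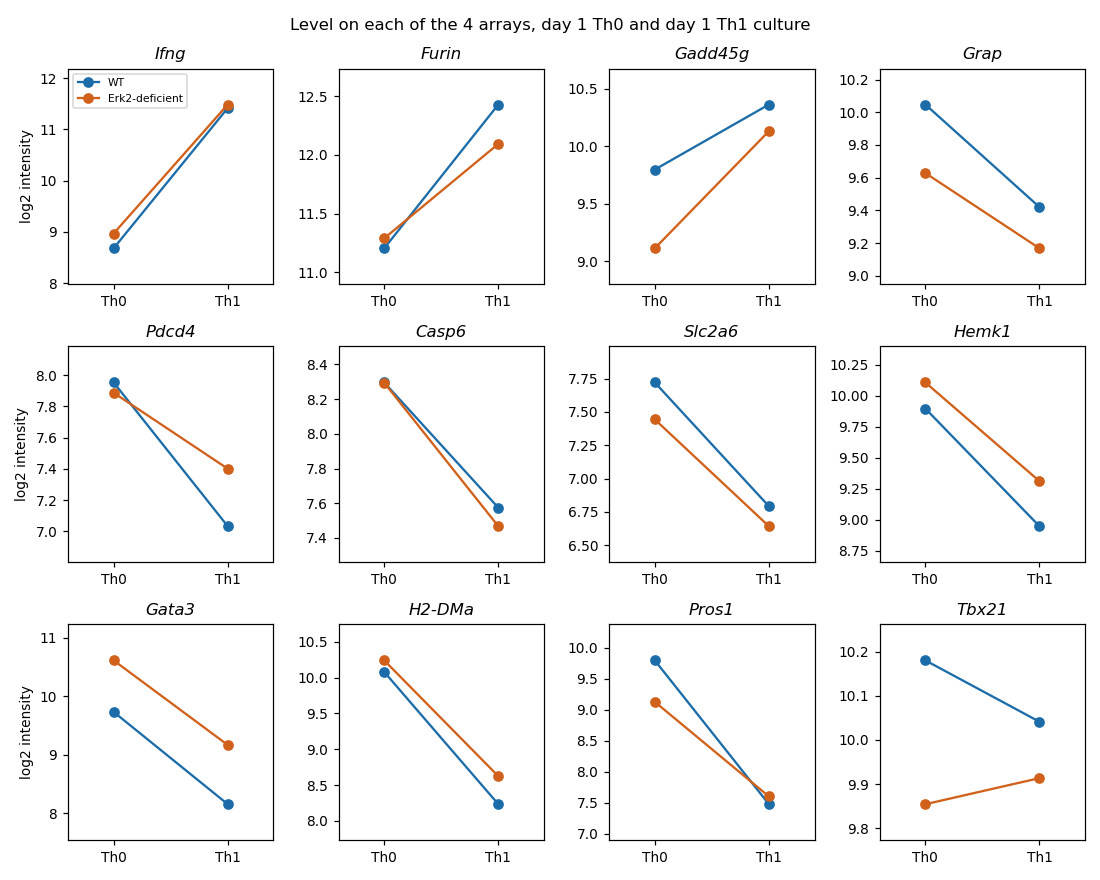
Log2 intensity (vertical axis, a separate range in each panel) on the 4 arrays in Th0 and Th1 culture, with a line joining the arrays of 1 genotype. The 11 genes with a symbol that passed the test run the same way in both genotypes, from Ifng (8.68 and 8.97 to 11.42 and 11.49) to Pros1 (9.80 and 9.13 to 7.47 and 7.60), while Tbx21 differs by −0.14 in WT and 0.06 in Erk2-deficient cells.

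Ifng encodes interferon gamma, the defining cytokine of Th1 cells (gene ID 15978, chromosome 10 from 118441046 to 118445894 on GRCm38). Its log2 intensity in Th0 culture was 8.68 in WT and 8.97 in Erk2-deficient cells. In Th1 culture it was 11.42 and 11.49. Both Th1 arrays were thus far above both Th0 arrays and close to each other. The increase was 6.18-fold (a log2 difference of 2.63 with an SE of 0.249 and an adjusted p of 0.000124). It was 2.74 in WT and 2.52 in Erk2-deficient cells, alike by the rule above, and the difference between the genotypes was −0.22 with an SE of 0.456. The other Ifng probe rose 5.34-fold, by 2.46 in WT and 2.38 in Erk2-deficient cells (adjusted p = 0.000124). Against the Th0 cultures with TGF on the same chip the first probe differed by 3.15 (1 hr) and 3.31 (3 hr). Among the 8 conditions Th1 culture had the highest Ifng level in either genotype. The next in order were 3 hr iTreg culture in WT cells, at 9.60, and day 1 Th0 culture in Erk2-deficient cells, at 8.97, while day 0 cells were at 8.14 and 7.91.

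Gata3 (gene ID 14462, chromosome 2 from 9857078 to 9887953) was the called transcription factor of another helper lineage. Its level in Th0 culture was 9.73 in WT and 10.61 in Erk2-deficient cells, and in Th1 culture it was 8.16 and 9.17. The Erk2-deficient array was the higher one in both cultures, and the Erk2-deficient Th1 array remained below the WT Th0 array. Gata3 fell 2.85-fold (log2 difference −1.51, SE 0.180, adjusted p = 0.00121), by −1.58 in WT and −1.44 in Erk2-deficient cells, which is alike. Th1 culture had the lowest Gata3 level of the 8 conditions in each genotype, the nearest being day 1 iTreg in WT cells at 8.98 and 3 hr iTreg in Erk2-deficient cells at 9.85. On the chip of the Th1 arrays the difference was −1.33 and −1.30 against Th0 with 1 hr and 3 hr of TGF. Without the WT Th1 array the adjusted p was 0.0583, and without a genotype term it was 0.736.

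Pros1 encodes protein S, an anticoagulant cofactor of the blood that is also a ligand of the TAM receptor kinases (gene ID 19128, chromosome 16 from 62854307 to 62929346). It was at 9.80 in WT and 9.13 in Erk2-deficient Th0 cultures and at 7.47 and 7.60 in Th1 cultures. The genotypes were apart in Th0 culture and nearly level in Th1 culture. Pros1 fell 3.80-fold (log2 difference −1.93, SE 0.160, adjusted p = 4.99e-05). The fall was −2.32 in WT and −1.53 in Erk2-deficient cells, still alike by the rule, with a genotype difference of 0.79 (SE 0.255) that did not pass after adjustment (adjusted p = 1 by limma). Before day 1 the gene was near the dim end, at 6.64 to 6.88 on the day 0 and 3 hr arrays. Th1 culture was therefore the day 1 condition with the lowest Pros1 level, though above the arrays before day 1. Against the same-chip Th0 cultures the difference was −1.87 (1 hr of TGF) and −1.42 (3 hr).

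The promoters of these 3 genes are shown because they gave the largest rise, the lineage factor and the largest fall among named genes that passed. Each window runs from 250 bases before to 50 after the annotated start, from RefSeq on GRCm38.p6, 5′ to 3′ on the gene's strand, with matches to the GAS (interferon gamma activated site) motif TTCNNNGAA in capitals. The Gata3 window belongs to an annotated transcript start inside the gene span given above.
Ifng, chr10:118440796-118441095, plus strand: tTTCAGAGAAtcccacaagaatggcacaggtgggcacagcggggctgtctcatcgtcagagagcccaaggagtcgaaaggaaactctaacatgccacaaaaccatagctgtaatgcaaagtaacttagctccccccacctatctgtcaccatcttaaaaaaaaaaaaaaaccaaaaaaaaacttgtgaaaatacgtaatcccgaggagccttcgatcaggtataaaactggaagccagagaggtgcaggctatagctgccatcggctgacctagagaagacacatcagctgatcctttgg
Gata3, chr2:9878551-9878850, minus strand: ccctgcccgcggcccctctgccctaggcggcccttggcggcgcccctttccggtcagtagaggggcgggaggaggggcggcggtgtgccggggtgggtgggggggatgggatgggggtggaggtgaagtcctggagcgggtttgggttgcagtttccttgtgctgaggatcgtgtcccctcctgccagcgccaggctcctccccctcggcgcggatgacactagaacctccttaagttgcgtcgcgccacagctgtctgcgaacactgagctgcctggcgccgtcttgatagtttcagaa
Pros1, chr16:62854057-62854356, plus strand: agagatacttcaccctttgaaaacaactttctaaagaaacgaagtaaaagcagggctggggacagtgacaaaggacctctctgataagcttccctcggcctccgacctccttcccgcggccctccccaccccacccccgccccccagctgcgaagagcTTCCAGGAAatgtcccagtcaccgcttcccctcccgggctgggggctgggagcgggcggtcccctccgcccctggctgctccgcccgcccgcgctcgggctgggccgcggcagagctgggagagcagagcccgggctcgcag
The motif was matched once in the Ifng window, starting 249 bases before the start, once in the Pros1 window, starting 92 bases before it, and not in the Gata3 window. Of the 11 called genes with a symbol, 10 had a window in the RefSeq table, in all 13 windows, and 3 genes (Ifng, Pros1 and Pdcd4) held the GAS motif, in 1 window each. Over 32851 mouse promoter windows of the same length, 8.3% held it. The ISRE core GAAANNGAA, found in 8.56% of all windows, and the T-box motif GGTGTGA, in 3.98%, were matched in 0 of the 13 windows. All motifs were searched on both strands, overlapping matches of different motifs were allowed, and a match describes the letters only.

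H2-DMa encodes a chain of the peptide-editing molecule H2-DM, which loads MHC class II (gene ID 14998, chromosome 17 from 34119693 to 34139101). Its level was 10.08 (WT) and 10.24 (Erk2-deficient) in Th0 culture and 8.23 and 8.62 in Th1 culture. Both Th1 arrays were the lowest of the 8 conditions in their genotype, whereas day 1 iTreg culture had the highest levels, 10.61 and 11.54. H2-DMa fell 3.33-fold (log2 difference −1.73, SE 0.199, adjusted p = 0.000989), alike in both genotypes (−1.85 and −1.62), and differed by −2.12 and −2.04 from Th0 with 1 hr and 3 hr of TGF on the same chip. Without the WT Th0 array the adjusted p was 0.0557. It was the single member of 8 measured MHC class II genes to pass. The others differed by −0.33 (H2-DMb1, the partner chain) to 0.09 (H2-Eb1), and the list median was −0.12. H2-DMb1 was dim, at 6.62 and 6.52 in Th0 and 6.12 and 6.36 in Th1 culture, and below background on the WT Th1 array. H2-Eb1 was not above background on the Erk2-deficient Th0 array, nor H2-Ob on any of the 4. Such dim genes had little room to fall. Markers of B cells and myeloid cells, which can carry MHC class II, were set beside H2-DMa. The 6 measured B cell markers had a summed intensity of 459.2 to 470.8 in Th0 and 439.8 to 459.3 in Th1 culture, and 2 of them, Cd79a and Blnk, were not above background on any of the 4 arrays. Of 8 measured myeloid markers none passed, but 5 were lower in both genotypes and 0 higher (median −0.16), with Lyz1, a lysozyme gene, at −0.55. Over all 9800 genes tested, 2790 were lower in both genotypes. Of the 8 myeloid markers, 3 were not above background on any of the 4 arrays. The summed intensity of all 8 was 2126 to 2238 in Th0 and 1885 to 2107 in Th1 culture. The part of B cells and myeloid cells in the H2-DMa difference was not tested.

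Furin encodes a proprotein convertase that matures TGF-beta and other precursors (gene ID 18550, chromosome 7 from 80389194 to 80405441). It was at 11.21 and 11.29 in WT and Erk2-deficient Th0 cultures and at 12.43 and 12.09 in Th1 cultures. It rose 2.02-fold (log2 difference 1.01, SE 0.179, adjusted p = 0.0392), by 1.22 in WT and 0.80 in Erk2-deficient cells, which is alike. The second probe rose by 0.96 (adjusted p = 0.00124). Day 1 iTreg culture had Furin levels as high as Th1 culture or higher, 12.49 in WT and 12.51 in Erk2-deficient cells. The difference was 0.91 and 0.75 against the same-chip Th0 cultures with TGF. The call of the first probe was lost without any 1 of the 4 arrays (adjusted p = 0.886 without WT Th0, 0.221 without Erk2-deficient Th0, 0.68 without WT Th1 and 0.238 without Erk2-deficient Th1).

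Gadd45g encodes a stress-response protein that activates the p38 pathway through Mekk4 in Th1 cells (gene ID 23882, chromosome 13 from 51846675 to 51848475). It was at 9.80 in WT and 9.11 in Erk2-deficient Th0 cultures and at 10.36 and 10.13 in Th1 cultures. The genotype gap seen in Th0 culture was thus narrower in Th1 culture. Gadd45g rose 1.73-fold (log2 difference 0.79, SE 0.125, adjusted p = 0.0176), by 0.56 in WT and 1.02 in Erk2-deficient cells, just inside the rule for alike. Its second probe rose by 0.71 (adjusted p = 0.0176). The level in Th1 culture was about that of day 0 cells, 10.35 and 10.15, and day 1 iTreg culture had the lowest levels, 9.38 and 8.79. Against the same-chip references it differed by 0.86 and 1.02. The call was lost without the WT Th0 array (adjusted p = 0.149), the Erk2-deficient Th0 array (0.302) or the Erk2-deficient Th1 array (0.435).

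The remaining called genes fell by less than 2-fold, all alike in both genotypes. On GRCm38 Slc2a6 (gene ID 227659) lies on chromosome 2 from 27021363 to 27028000, Hemk1 (69536) on chromosome 9 from 107327082 to 107340437 and Pdcd4 (18569) on chromosome 19 from 53892231 to 53937592. Casp6 (12368) lies on chromosome 3 from 129901415 to 129914112 and Grap (71520) on chromosome 11 from 61653321 to 61672777. Slc2a6, a member of the facilitative sugar transporter family, was at 7.72 and 7.44 in WT and Erk2-deficient Th0 cultures and at 6.79 and 6.64 in Th1 cultures (log2 difference −0.87, SE 0.110, adjusted p = 0.00193). Hemk1, a methyltransferase of translation release factors, went from 9.90 and 10.11 to 8.95 and 9.31 (−0.87, SE 0.136, adjusted p = 0.0167). Both genes were highest in day 1 iTreg culture, Slc2a6 at 8.99 and 8.94 and Hemk1 at 11.23 and 10.90. Pdcd4, an inhibitor of translation, was at 7.95 and 7.89 in Th0 and 7.03 and 7.40 in Th1 culture (−0.70, adjusted p = 0.0176). Day 0 cells had 9.52 and 9.78, and Th1 culture had the lowest Pdcd4 level of the 8 conditions in each genotype. Casp6, an effector caspase, was at 8.30 and 8.29 in Th0 and 7.57 and 7.47 in Th1 culture (−0.77, adjusted p = 0.0249). Its other probe differed by −0.47 (adjusted p = 0.328), and on the same chip the called probe differed by −0.36 and −0.16 and lost the call (adjusted p = 0.44 and 0.696). Grap, an adaptor of the Grb2 family, was at 10.05 and 9.63 in Th0 and 9.42 and 9.17 in Th1 culture (−0.54, adjusted p = 0.0339), and its same-chip differences were −0.52 and −0.18, the latter without a call (adjusted p = 0.451). Thus for Casp6 against both references, and for Grap against Th0 with 3 hr of TGF, the same-chip difference was less than 0.5 of the difference from the other chip.

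Each of these 5 calls was lost in at least 3 of the 4 fits without 1 array. Without the WT Th0 array the adjusted p was 0.133 for Slc2a6, 0.164 for Hemk1, 0.666 for Pdcd4, 0.724 for Casp6 and 0.886 for Grap. Without the WT Th1 array it was 0.0583, 0.401, 0.493, 0.0648 and 0.338 in the same order. Without the Erk2-deficient Th1 array it was 0.0541 for Slc2a6, 0.0569 for Pdcd4, 0.465 for Casp6 and 0.435 for Grap, and without the Erk2-deficient Th0 array 0.281 for Hemk1 and 0.167 for Casp6. The directions remained in each of those fits.

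**Figure D2:**
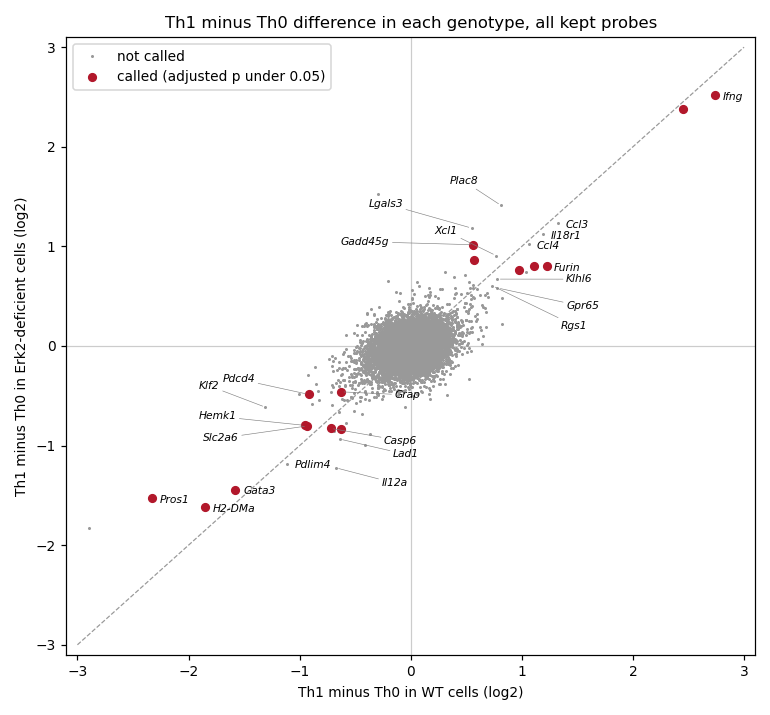
Each point is 1 of 14501 kept probes, with the log2 difference, Th1 minus Th0, in WT cells on the horizontal axis and in Erk2-deficient cells on the vertical axis; the dashed line marks equal differences and filled red points passed the test over both genotypes. The called probes lie near the dashed line, with Pros1 (−2.32 and −1.53) and Gadd45g (0.56 and 1.02) among those farther from it.

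Whether the Th1 response differed between WT and Erk2-deficient cells was tested directly in a fit with separate genotype terms for day 1 Th0 and day 1 Th1. By limma, 0 of 14501 probes passed, with 173 at an unadjusted p under 0.05. The test was less precise than the comparison of cultures, with a median SE of 0.214 against 0.102. Differences between the genotypes of modest size were thus not detectable with these arrays. Even a difference as large as that of Pros1 (0.79, SE 0.255) did not pass. Of the 83 probes that differed by at least 0.5 over both genotypes, 41 higher and 42 lower in Th1 culture, 72 were alike, 10 unequal and 1 opposite. The opposite one was Hba-a1, a haemoglobin gene, at 8.55 and 6.22 in WT and Erk2-deficient Th0 cultures and 8.26 and 7.75 in Th1 cultures. The 83 probes were picked by the mean of the same 2 differences, which itself favours like signs. Over all 9800 genes tested, with 1 probe each, 4070 were opposite. Over all kept probes Pearson's r between the WT and the Erk2-deficient difference was 0.396, across probes that share the chips and are no independent replicates. Among named genes the smallest p values of the genotype test belonged to Eid2 (−0.20 in WT, 0.65 in Erk2-deficient cells), Tacc1 (−0.28 and 0.40), Olfml1 (0.30 and −0.38), Sc5d (−0.42 and 0.20), Trim65 (−0.41 and 0.23) and Tmsb10 (−0.59 and 0.11), all opposite in sign and with an adjusted p of 1.

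**Figure D3:**
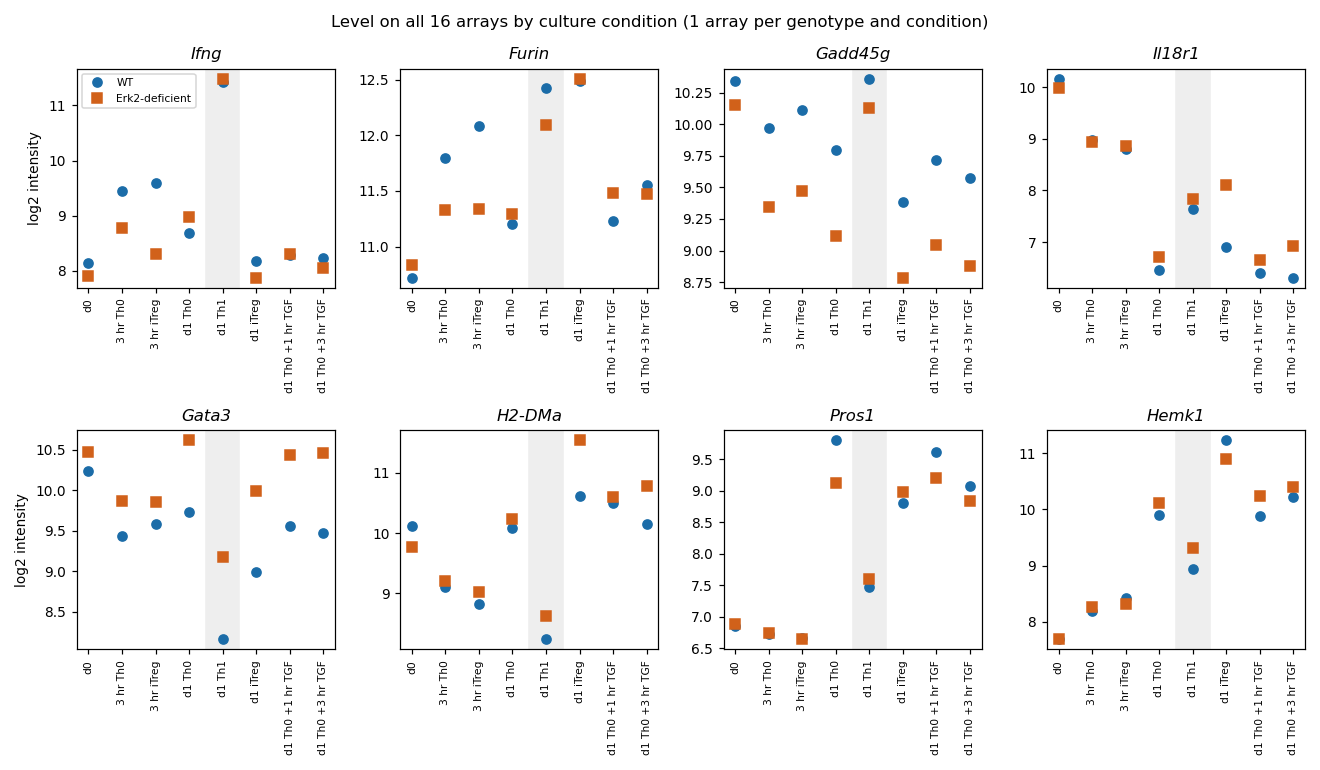
Log2 intensity (vertical axis) of 8 genes on all 16 arrays, by culture condition, with WT arrays as circles, Erk2-deficient arrays as squares and the Th1 cultures shaded. Ifng was highest in Th1 culture, Gata3 and H2-DMa lowest, Pros1 was the lowest of the day 1 conditions, and Il18r1 in Th1 culture (7.65 and 7.83) lay between day 1 Th0 (6.45 and 6.71) and day 0 (10.17 and 9.99).

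Of the 17 listed genes of the Th1 lineage and its receptors, 12 were measured, and none passed by the limma test. Tbx21 was at 10.18 and 9.85 in WT and Erk2-deficient Th0 cultures and at 10.04 and 9.91 in Th1 cultures. The Th1 arrays lay within the range of the Th0 arrays (log2 difference −0.04, SE 0.227, adjusted p = 0.999, opposite in sign between genotypes). At day 0 Tbx21 was at 6.75 and 6.94, so both day 1 cultures were well above day 0 cells. Il18r1, a chain of the interleukin 18 receptor, was at 6.45 and 6.71 in Th0 and 7.65 and 7.83 in Th1 culture. Its difference of 1.16 (SE 0.222) missed the threshold (adjusted p = 0.0702), was alike in both genotypes (1.19 and 1.12), and was 1.22 and 1.12 against the same-chip references. The next by size were Il12rb2, the inducible chain of the interleukin 12 receptor (0.38, adjusted p = 0.629, alike), the chemokine receptor Cxcr6 (0.36, alike) and Il18rap, the other interleukin 18 receptor chain (0.21, alike; above background on 1 of the 4 arrays). Stat4, which transmits interleukin 12 signals, differed by −0.05, and Il12rb1 by 0.10, both opposite in sign between genotypes. Eomes differed by 0.15 and Twist1 by −0.10, both alike, and Ifngr1 by 0.02 and Cxcr3 by 0.05, both opposite. The interferon gamma receptor chain Ifngr2 had 3 probes, which differed by −0.10, −0.43 and −0.58, none past the threshold. The list median was 0.07, against 0.0023 over all 9800 genes tested.

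Among 12 measured Th1 cytokines and chemokines, Ifng alone passed, and the chemokines had the next largest differences. Ccl3, an inflammatory chemokine, was at 9.21 and 9.14 in Th0 and 10.53 and 10.37 in Th1 culture, a difference of 1.28 (SE 0.261) that missed the threshold (adjusted p = 0.0879; 1.73 and 1.89 on the same chip). Ccl4, a close relative of Ccl3, differed by 1.04 (adjusted p = 0.490) and by 0.89 on its brighter probe. Xcl1, a chemokine that attracts dendritic cells, differed by 0.84 (adjusted p = 0.247), but by 0.58 and 0.17 from the same-chip references. All 3 were alike in both genotypes. At each both Th1 arrays lay above both Th0 arrays, where 37.4% of all kept probes had groups that did not overlap. For Xcl1 the nearest arrays were at 8.29 (Erk2-deficient Th1) and 8.22 (WT Th0). Tnf differed by 0.19 and Ltb by −0.39, alike, Lta by 0.11 and Il10 by 0.30, unequal, and Csf2, Ccl5, Fasl and Tnfsf11 by −0.07 to 0.16 with opposite signs. The list median was 0.17 (7 of 12 above 0 in both genotypes, where 2940 of 9800 genes were).

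The CD8 and NK cell markers that can also accompany Ifng were examined beside it. Of 7 measured, none passed, and the median difference was 0.08. Cd8b1, a chain of the CD8 co-receptor, was at 9.62 to 10.30 on the 4 arrays, with a difference of −0.37, and the cytotoxic granule genes Nkg7 and Prf1 differed by 0.60 and 0.20. Klrd1, an NK cell receptor chain, differed by 0.54. The summed intensity of the list was 2433 to 2587 in Th0 and 2571 to 2660 in Th1 culture, and the part of such cells in the Ifng difference was not tested.

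Of 13 measured interferon-inducible GTPases, which defend cells against intracellular microbes, none passed in either direction and 10 were lower in both genotypes (2790 of 9800 genes were). The differences ran from −0.42 (Irgm2) to 0.06 (Gm4841), with a median of −0.23. Ifi47 was at 12.92 and 12.92 in Th0 and 12.34 and 12.76 in Th1 culture (−0.38, unequal), and Gbp2 at 13.75 and 13.57 and at 13.49 and 13.21 (−0.31, alike). Gbp7 (−0.37), Igtp (−0.29) and Gbp10 (−0.23) were unequal, Tgtp1 (−0.28) and Gvin1 (−0.19) alike, and Irgm1 (0.01) and Gbp3 (−0.10) opposite. Gbp5 (−0.09) was unequal, and Gbp11 was not above background on any of the 4 arrays. The median was −0.20 against Th0 with 1 hr of TGF and −0.05 against Th0 with 3 hr of TGF, both on the chip of the Th1 arrays.

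Of 14 measured interferon gamma-induced regulators none passed, and they were divided, with 6 higher and 7 lower in both genotypes. Of all 9800 genes, 2940 were higher and 2790 lower in both. The median of the regulators was −0.08. Irf1, an interferon-induced transcription factor, had 5 probes that differed by −0.34 to −0.16, and the brightest was alike in both genotypes (−0.22 and −0.23). The feedback inhibitor Socs1 differed by −0.32 (unequal), Wars by −0.25 and the kinase gene Pim1 by −0.33 (both alike). Irf8 differed by 0.12, Icam1 by 0.16 and Casp1 by 0.27, all alike. Nlrc5, the activator of MHC class I genes, and Cd274, which encodes PD-L1, differed by −0.16 and −0.19, both alike. Socs3 (0.11), Cxcl9 (0.43) and Stat3 (−0.03) were unequal, Jak2 (−0.13) was opposite, and Cxcl10 was not above background on any of the 4 arrays. Of 17 measured MHC class I and peptide-loading genes, none passed and 12 were lower in both genotypes (2790 of 9800 genes were). Their median was −0.14, with Psmb9, an immunoproteasome subunit, at −0.41 (adjusted p = 0.185, unequal). Of 30 measured type I interferon response genes none passed, and the median was −0.01. Of these 30, 9 were not above background on any of the 4 arrays.

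**Figure D4:**
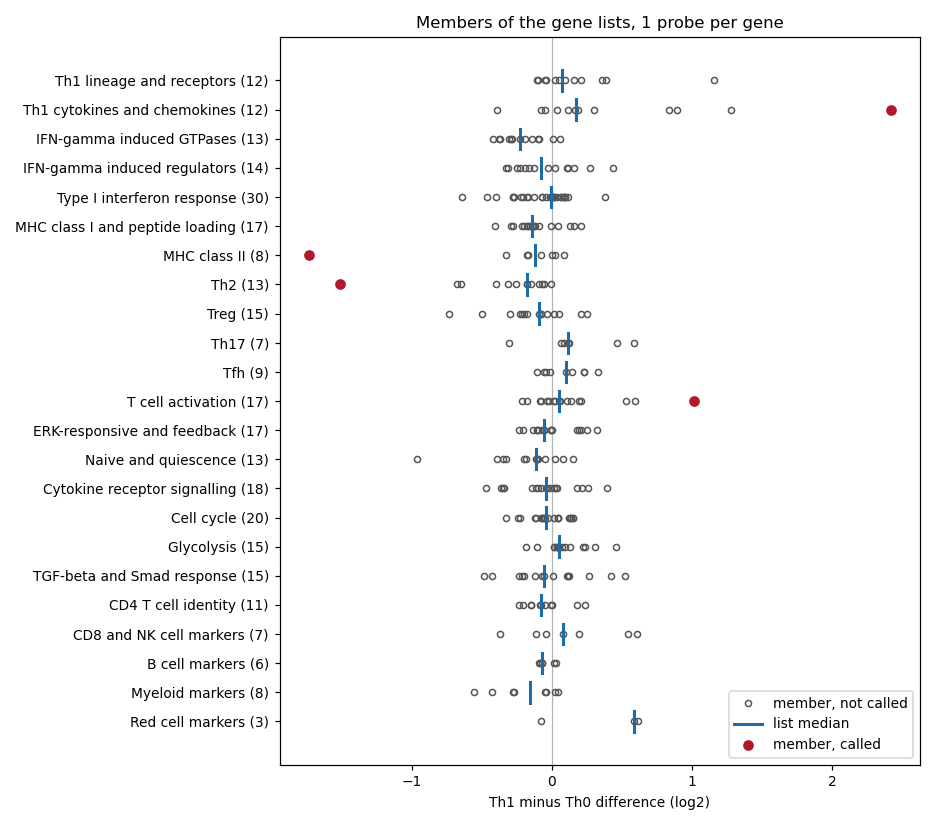
Log2 difference, Th1 minus Th0, of each measured member of 23 gene lists, 1 probe per gene (the brightest), with the number measured in brackets; blue bars are list medians and filled red points passed the test. The called members are Ifng, Furin, Gata3 and H2-DMa, and the median of the interferon-induced GTPases was −0.23.

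Among 13 measured Th2 genes Gata3 was the single member to pass, and 11 were lower in both genotypes (2790 of 9800 genes were). Their median was −0.18. Ccr8, a chemokine receptor of Th2 and regulatory T cells, was at 8.65 and 9.68 in Th0 and 8.07 and 8.91 in Th1 culture (−0.68, adjusted p = 0.226, alike). Cish, a feedback inhibitor induced through Stat5, was at 12.49 and 12.70 in Th0 and 11.78 and 12.11 in Th1 culture (−0.65, adjusted p = 0.433, alike). Il4, the main Th2 cytokine, differed by −0.26 (unequal). Ecm1 (−0.40, unequal) and Gfi1 (−0.31, alike) differed by 0.42 and 0.88 from Th0 with 3 hr of TGF, a reference in which they were −0.82 and −1.19 from Th0. In the cytokine receptor signalling list 0 of 18 passed, and Stat5a differed by −0.47 (adjusted p = 0.176, alike), Il2rb by −0.36 (unequal) and Osm by 0.39 (alike). The other Stat5a probe differed by −0.20 (adjusted p = 0.963 by limma).

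Of 15 measured regulatory T cell genes none passed, and 10 were lower in both genotypes (2790 of 9800 genes were), with a median of −0.09. Foxp3, their lineage factor, differed by −0.03 with opposite signs. Gpr83 (−0.74), Izumo1r, which encodes folate receptor 4 (−0.50), and Capg (−0.30) were alike. Another 2 members were higher in both genotypes and 3 were opposite. Ctla4 was among the higher ones, at 10.67 and 11.27 in Th0 and 11.05 and 11.38 in Th1 culture. None of 7 Th17 and none of 9 Tfh genes passed. Among the former, Il21, a cytokine of helper T cells, was not above background on either Th0 array and was at 6.81 and 6.64 in Th1 culture, at least 1.34-fold higher (adjusted p = 0.0739, alike). Of 17 T cell activation genes Furin alone passed. Cd40lg, the ligand of CD40 (0.59), and the AP-1 factor Batf (0.53) were alike and did not pass. Of 15 TGF-beta and Smad response genes none passed, and Bhlhe40, a transcription factor of cytokine-producing T cells, differed by 0.52 (adjusted p = 0.0879, alike). In that list 6 were higher and 7 lower in both genotypes (median −0.06). Aqp3 was among the lower ones, at 6.89 and 7.08 in Th0 and 6.43 and 6.57 in Th1 culture.

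The lists of cell state held no called member. Of 17 ERK-responsive genes none passed, with a median of −0.06 and with Egr1 at 11.99 and 9.68 in WT and Erk2-deficient Th0 cultures and 11.85 and 9.42 in Th1 cultures. Its genotype gap was thus much larger than its difference between cultures. None of 20 cell cycle genes (median −0.04) and none of 15 glycolysis genes (median 0.05) passed, and in the latter Hk2, hexokinase 2, differed by 0.46 (alike). Of 13 naive and quiescence genes none passed and 9 were lower in both genotypes (2790 of 9800 genes were), with a median of −0.12. Of 11 CD4 T cell identity genes none passed (median −0.07). Of 3 red cell markers none passed, and the summed intensity was 508.8 and 202.9 in Th0 and 460.6 and 385.8 in Th1 culture, moved mostly by Hba-a1. Their median was 0.58, with 1 member higher in both genotypes and 2 opposite. The former, Slc4a1, was not above background on either Th0 array and was at 6.65 and 6.74 in Th1 culture. None of the 6 B cell markers passed (median −0.07).

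**Figure D5:**
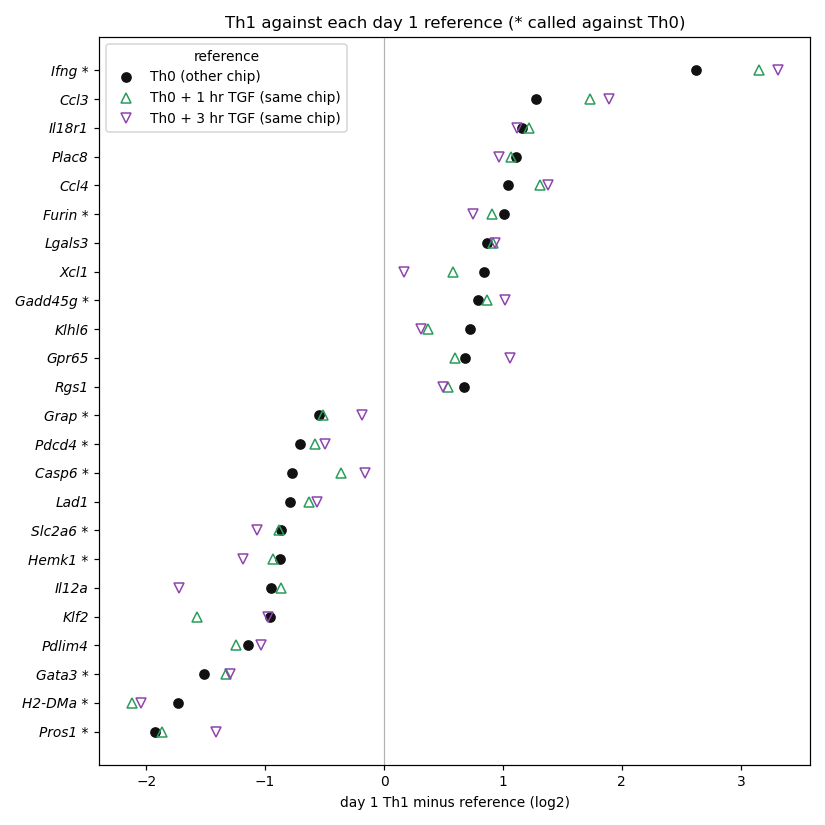
Log2 difference of day 1 Th1 culture from day 1 Th0 culture on the other chip (filled circles), and from day 1 Th0 with TGF for 1 hr or 3 hr on the same chip (open triangles), means of the 2 genotypes, for the 12 largest rises and 12 largest falls named; a star marks a call against Th0. All 24 genes have the same sign against each reference, and Casp6, Klhl6 and Xcl1 are among those with a smaller difference on the same chip.

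Beyond the called genes, the rule for named genes took 9 further rises and 4 further falls that missed the threshold. Those further genes were taken only where both genotypes had 1 direction, so none of them could be opposite. Of all 24, 22 were alike and 2 unequal, Lgals3 and Klf2. Plac8 was at 9.28 and 8.92 in Th0 and 10.09 and 10.33 in Th1 culture (1.11, adjusted p = 0.149). Lgals3, which encodes galectin 3, differed by 0.55 in WT and 1.18 in Erk2-deficient cells. Klhl6 (0.73, adjusted p = 0.0590) was among the nearest to the threshold, but its same-chip differences were 0.37 and 0.31. Gpr65, an acid-sensing receptor (0.68), and Rgs1, a regulator of G protein signalling with 3 probes (0.58 to 0.67), differed by similar amounts. Klf2, a transcription factor of resting and recirculating T cells, was at 9.71 and 10.14 in Th0 and 8.40 and 9.52 in Th1 culture, a difference of −1.31 in WT and −0.61 in Erk2-deficient cells (adjusted p = 0.298). Pdlim4 (−1.15, adjusted p = 0.523) and Lad1 (−0.79, adjusted p = 0.0739) were each higher in Erk2-deficient cells in both cultures and alike in their difference. Il12a, which encodes the p35 subunit of interleukin 12, was at 6.83 and 7.31 in Th0 culture and not above background on either Th1 array, a level at least 1.71-fold lower (adjusted p = 0.111), and day 1 iTreg culture had 9.05 and 8.64. A probe without a symbol, named here after its values were seen (ILMN_2656854), differed by −2.36 (adjusted p = 0.0590, alike).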

How the data were processed

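Illumina bead arrays measured RNA of the 16 samples. The authors deposited a table of non-normalized probe intensity on a linear scale and a second table of intensity they had normalized, with no method in the labels; the second table served as an alternative. RNA was Trizol-extracted and labelled with biotin, per the labels. Intensities were background-corrected (normexp, offset 50), quantile normalized and log2-transformed with limma 3.58.1 in R 4.3.3. A probe was above background past the 99th percentile of a normal background fitted to the lower side of each array's mode, and 14501 of 25697 probes passed on 2 or more arrays and were kept (13612 with a symbol, for 9800 genes). All 16 arrays were fitted with culture condition and genotype as terms (lmFit, eBayes, 7 residual degrees of freedom), and p-values were adjusted by Benjamini-Hochberg across the kept probes, with a threshold of 0.05. The fit for differences between genotypes gave day 1 Th0 and day 1 Th1 their own genotype terms and assumes that these arrays vary like the other 6 pairs. Nothing says that the samples came from separate animals, so the p-values reflect only how these arrays vary, and few arrays limit the precision. A level against arrays not above background is a lower bound.

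Named genes are the 12 largest rises and 12 largest falls, called first and then by size with 1 direction in both genotypes, all members of the Th1 and interferon gamma lists, up to 5 of each other list and the 6 smallest p of the genotype test. The members and the 23 lists were chosen with earlier results of these data known. The procedure was tested on simulated data. Of the probes, 23978 had 1 symbol and 1719 none. Alternatives were other background corrections, normalizations, filters and priors, array weights, fewer arrays, other genotype terms, the same-chip references and leaving out arrays. Some listed genes are not reported here.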

Additional observations from a re-analysis of the deposited data

How the results depend on the processing

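Ifng and Pros1 passed in all 21 alternatives, and all 11 called genes kept their direction in them, while 9 of the 11 lost the call without at least 1 of the 4 arrays. Leaving out 1 of the 4 arrays gave 4 (WT Th0) to 10 probes (Erk2-deficient Th0) in place of 16, with 6 without WT Th1 and 8 without Erk2-deficient Th1. The count was 25 without the day 0 pair, 53 without the day 1 iTreg pair, 44 in the 10 day 1 arrays, 396 in the 4 arrays alone (1 residual degree of freedom), 112 with array weights, 38 with genotype terms separate for day 1 and earlier, and 6 with no genotype term. Against Th0 with TGF on the same chip it was 108 (1 hr) and 297 (3 hr), references that differ also by TGF. The other settings gave 15 to 24 probes. Median scaling called 16 higher and 8 lower, against 7 and 9 with quantile normalization. The test between genotypes called 0 probes by limma in each of its 12 alternatives, with 119 to 487 at an unadjusted p under 0.05. Gfi1 turned to 0.88 against Th0 with 3 hr of TGF, and Dusp4 (0.21 against Th0) to −1.51 and −1.97 against 1 hr and 3 hr, references in which they differed from Th0 by −1.19, 1.72 and 2.18, with TGF and chip not told apart. Medians of the interferon-induced GTPases stayed between −0.32 and −0.05. No paired analysis was possible by replicate number because the labels give none, and genotype served as the block. Array number and signal over background limit small differences and dim genes, and culture and chip cannot be told apart.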

Other observations

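The probe without a symbol that was called higher, ILMN_2888191, was not above background on either Th0 array and was at 7.15 in WT and 6.86 in Erk2-deficient Th1 cultures, at least 1.63-fold higher (adjusted p = 0.00259 by limma). In each genotype Th1 culture had its highest level of the 8 conditions. The one called lower, ILMN_1224021, was at 7.61 and 7.89 in Th0 and at 6.98 and 7.05 in Th1 cultures (−0.73, adjusted p = 0.0202), and day 0 cells had 6.58 and 6.82.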
